A study of Mus musculus with 39 samples.

Results

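The mice given an S6K1 inhibitor on high-density lipoprotein nanoparticles (S6K1i-HDL) are represented by 9 RNA-seq libraries of plaque tissue, which the series lists in separate runs as replicates 1 to 6 and replicates 7 to 9. These sets were compared across all genes. They hold 9 of the 39 libraries of the series, 6 in the first set and 3 in the second, and were formed from the replicate numbers alone, with no measured value. The labels do not say what distinguishes them, so a run, a batch of animals or another cause cannot be told apart.

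Every library came from female Apoe-/- mice of strain B6.129P2-Apoe tm1Unc, which were bought at 8 weeks of age, fed a high-cholesterol diet for 12 weeks and treated from 20 weeks of age while the diet went on. S6K1i-HDL stands for PF-4708671 in nanoparticles at 5 mg/kg, as 4 intravenous injections over 7 days, with tissue taken 24 hours after the last. The other groups used here had the same schedule with PBS (saline, 10 libraries) or mTORi-HDL (rapamycin at 5 mg/kg, listed as replicates 1 to 4 and 5 to 10), and 10 libraries of TRAF6i-HDL (CD40-HDL at 5 mg/kg in the protocol's naming) entered the fit. None of these 39 libraries is labelled as given the empty particle, so drug and carrier cannot be told apart in a comparison with PBS. The tissue was CD68-rich plaque cut by laser capture from 6 µm aortic root sections, and its RNA was amplified before sequencing. The labels do not tie libraries to mice, so p-values measure the spread between libraries, which may in part be technical.

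S6K1, encoded by Rps6kb1, is a kinase activated by mTORC1 that phosphorylates the ribosomal protein Rps6 and other regulators of translation. Messenger RNAs of ribosomal proteins carry a pyrimidine tract at their start and are among those whose translation mTORC1 controls most tightly. In plaques, macrophages take up modified lipoproteins and become foam cells, and CD68 marks their lysosomes and endosomes.

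The libraries within the sets were not alike. Replicate 1 held 118527 counts in genes and 8270 detected genes, while replicates 2 to 9 held 3843708 to 6833491 counts and 14018 to 14728 genes. Rn45s, the 45S ribosomal RNA transcript, took 27.2% of the counts in replicate 7, 42.1% in replicate 8 and 14.5% in replicate 9. In replicates 1 to 6 its share ran from 34.97% to 47.5% with a median of 42.1%, so replicate 8 lay inside the first set and replicates 7 and 9 below it. The means were 27.9% ± 13.8 (SD, n = 3) and 41.6% ± 4.44 (n = 6), with an exact two-sided permutation p of 0.0476 and 0.119 after adjustment over 6 library measures. Reads outside genes made up 52.3% ± 5.53 and 45.6% ± 2.81 (exact p = 0.0357, adjusted 0.119), and none of the 6 measures passed after adjustment (lowest possible exact p, 0.0119). Without replicate 1 the Rn45s share gave an exact p of 0.0536 (adjusted 0.107).

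Expression profiles divided the same way. Over 6723 genes, log2 CPM (counts scaled to a common library size) of replicate 8 correlated at r = 0.972 with replicate 6, 0.933 with replicate 7 and 0.945 with replicate 9, while replicates 7 and 9 correlated at 0.953. These are correlations across genes, which are not independent replicates. Replicate 1 correlated at 0.707 to 0.737 with the others. On the first principal component of replicates 2 to 9 (33.4% of the variance), replicate 7 was at 31.8 and replicate 9 at 24.5. Replicate 8 was at -4.12, within the span of replicates 2 to 6 (-13.7 to -2.92). The second set thus held 2 libraries that stood apart from the first set and 1 that did not.

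**Figure D1:**
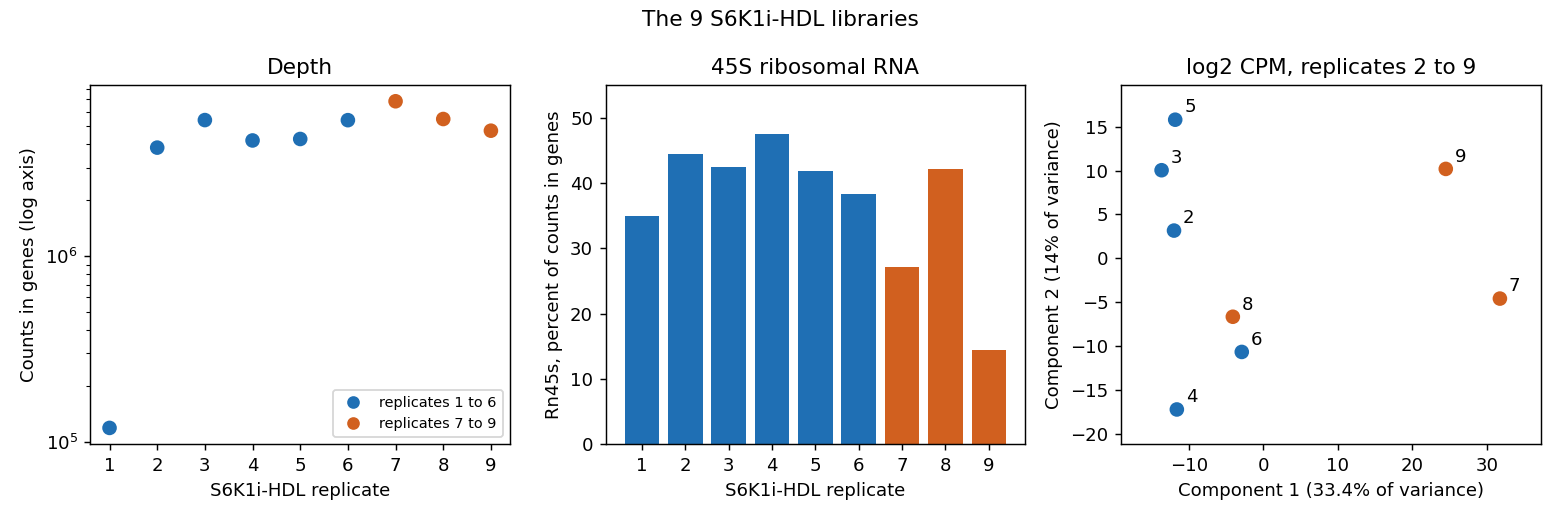
Counts in genes (log axis), the share of counts in Rn45s (percent) and the first 2 principal components of log2 CPM for the S6K1i-HDL libraries, with replicates 1 to 6 in blue and 7 to 9 in orange. Replicate 1 lies at 118527 counts, replicates 7 and 9 have the lowest Rn45s shares (27.2% and 14.5%) and lie to the right on component 1, and replicate 8 lies beside replicate 6.

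No gene passed an adjusted p of 0.05 between the sets. Of 11617 genes tested, 0 were higher (0%) and 0 lower (0%) in replicates 7 to 9 by edgeR's quasi-likelihood test with Benjamini-Hochberg adjustment over all genes and with the spread estimated from all 39 libraries. At an unadjusted p under 0.05, 460 genes were higher (3.96%) and 223 lower (1.92%), 683 in all, where 581 would be expected by chance. The DESeq2 Wald test called 1 gene higher, S100a6, and 2 lower, Tek and Tgfa. Limma-voom with quality weights called 7 higher and 3 lower. Leaving out single libraries brought at most 3 genes past the threshold. S100a6 and Tek passed without S6K1i-HDL replicate 8, S100a6, Tek and Tgfa without replicate 6, and Tgfa without replicates 2 or 4. S100a6 passed without PBS replicate 1, and S100a6 and Tgfa without PBS replicates 3 or 7 or mTORi-HDL replicates 1 or 5. In CPM, all 3 libraries of the second set lay above all 6 of the first for 361 genes (3.11%) and below them for 152 (1.31%). Without replicate 1 these counts were 486 and 384 of 11617 genes, so the balance between directions depended on that shallow library. In replicate 1, 3 counts make 23.2 CPM, so overlap with it cannot be judged for genes below that level.

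A fit of the 9 libraries alone, whose spread is then their own, called 61 genes higher (0.536%) and 14 lower (0.123%) of 11390. Of these 75, 37 did not overlap between the sets, where 3.11% of all genes lay above and 1.31% below. The 75 were called on the same 9 libraries, so their lack of overlap is no separate support. The number of genes called moved with single libraries. It was 30 higher and 8 lower without replicate 1, 8 and 3 without 2, 8 and 0 without 3, 17 and 4 without 4, 4 and 0 without 5, and 129 and 27 without 6. Leaving out replicate 7 gave 11 and 1, leaving out replicate 9 gave 3 and 0, and leaving out replicate 8 gave 414 higher and 289 lower. Gm14446, a predicted gene, and S100a6 passed in all 9 of these repeats, and Snx10 and Eif1 in 8. With offsets for GC content and transcript length, or with the log2 Rn45s share as a covariate, 1 gene was left, Gm14446 both times.

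Among the higher genes S100a6 had the smallest p. S100a6, a calcium-binding protein, was at 206 CPM in replicate 7, 128 in replicate 8 and 178 in replicate 9. In replicates 1 to 6 it ran from 56.9 to 112 CPM with a median of 73.0. The second set lay above the first throughout, and replicate 8 was its lowest member. The log2 difference was 1.09 ± 0.22 (SE, adjusted p = 0.0521), and it passed the threshold in 22 of 53 alternative settings with values between 0.81 and 1.26. S100a4, of the same protein family, was at 139, 113 and 165 CPM against 67.1 to 107 with a median of 74.9. Its sets did not overlap, with a log2 difference of 0.81 ± 0.24 (adjusted p = 0.577). Tmsb10, an actin-monomer-binding thymosin, was at 147, 96.6 and 131 CPM against 61.5 to 97.3, so replicate 8 lay below the highest library of the first set (log2 difference 0.69 ± 0.19, adjusted p = 0.454). S100a4 was picked after its values were seen.

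Other genes with small p-values were higher in the same pattern. Serpinb6b, a serine protease inhibitor, was at 45.8 CPM in replicate 7, 22.0 in replicate 8 and 42.6 in replicate 9 against 7.73 to 20.5 (median 16.7). Tmem70, an assembly factor of mitochondrial ATP synthase, was at 18.5, 11.5 and 15.5 CPM against 4.67 to 7.88 (median 7.32). Sucla2, a subunit of the citric acid cycle enzyme succinyl-CoA synthetase, was at 22.3, 17.0 and 24.7 CPM against 7.73 to 12.3 (median 9.80). Replicate 8 was nearest the first set for all 3, yet above its CPM values. In replicate 1, 3 counts make 23.2 CPM, above replicate 8 for all 3, so an overlap with replicate 1 cannot be judged. The log2 differences of Serpinb6b, Tmem70 and Sucla2 were 1.09 ± 0.28, 1.19 ± 0.31 and 1.07 ± 0.28, each with an adjusted p of 0.454. Gm14446 was at 9.04, 6.74 and 5.82 CPM against 0 to 1.103 (median 0.50). Its log2 difference of 3.46 ± 0.88 (adjusted p = 0.454) depends on the fit's treatment of low counts, and PBS libraries ran from 0 to 10.1 CPM.

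**Figure D2:**
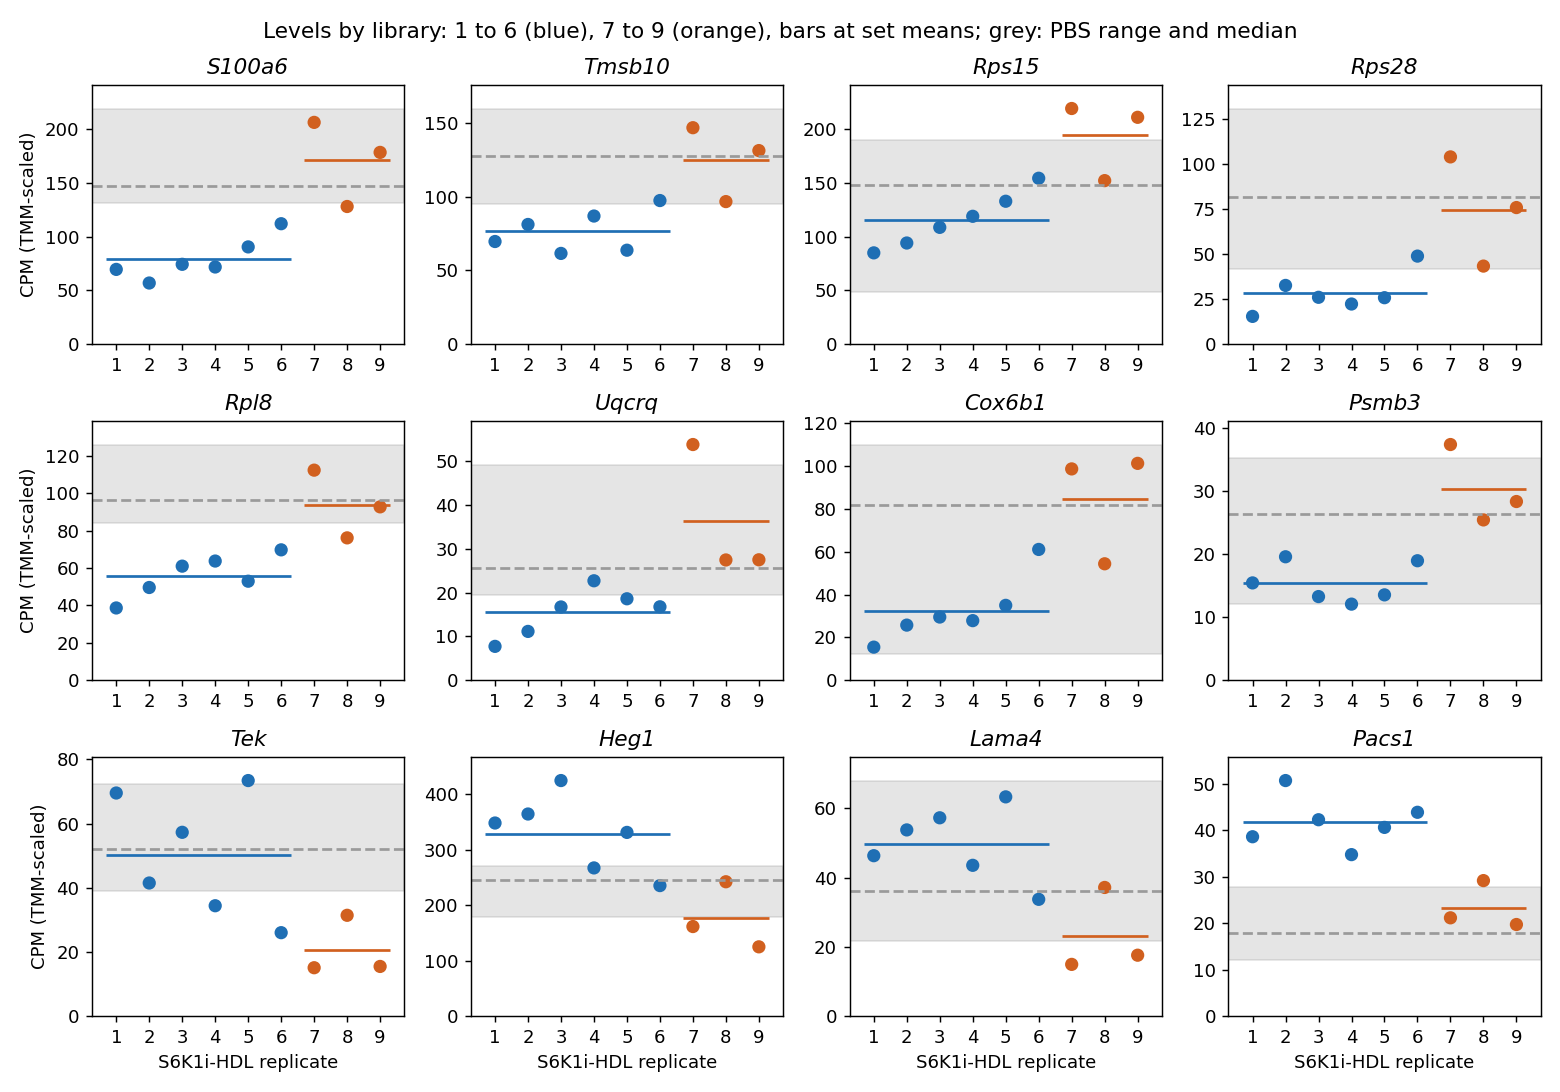
CPM of 12 genes in each S6K1i-HDL library (blue, replicates 1 to 6; orange, 7 to 9; horizontal bars, set means), with the range and the median of the 10 PBS libraries as a grey band and a dashed line. S100a6 in replicates 7 to 9 (128 to 206 CPM) lies above replicates 1 to 6 (56.9 to 112 CPM), and replicate 8 is the member of its set nearest the first set in most panels.

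Cytosolic ribosomal proteins lay mostly above 0. Of 76 tested members, 72 had a log2 difference above 0, with a median of 0.44 against 0.01 over all genes tested, and 0 passed the threshold. At an unadjusted p under 0.05, 38 of the 76 were higher and 0 lower, against 3.96% and 1.92% of all genes. The CPM of 18 members did not overlap between the sets, all higher, against 3.11% of all genes. Without replicate 1 it was 21 members, all higher, against 486 of 11617 genes. In the fit of the 9 libraries alone 15 of 76 passed as higher, against 0.536% of all genes. That count was 5 without replicate 1, 1 without 4, 26 without 6, 40 without 8, and 0 without 2, 3, 5, 7 or 9. It was also 0 with the length and GC offsets or the Rn45s covariate. These members share short transcripts, with a median of 719 bases against 2257 over all genes.

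The level of the list differed between libraries in both sets. Taken as the median over ribosomal proteins of each gene's log2 difference from its mean over the 39 libraries, it was 0.05 in replicate 7, -0.31 in replicate 8 and -0.07 in replicate 9. In replicates 1 to 6 it ran from -0.85 to -0.34, so the sets did not overlap but came within a small distance at replicates 8 and 6. PBS libraries ran from -0.49 to 0.74. The set difference kept its sign in every setting tried, with the list's median between 0.26 (length and GC offsets) and 0.58 (without replicate 8). It was 0.42 without replicate 1.

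Rps28, Rps15 and Rpl8 had the smallest p-values of the list among the genes named by rule. Rps28, a protein of the small subunit, was at 104 CPM in replicate 7, 43.4 in replicate 8 and 75.9 in replicate 9 against 15.5 to 49.0 (median 26.0). Rps15, also of the small subunit, was at 219, 152 and 211 CPM against 85.0 to 154 (median 114). Rpl8, of the large subunit, was at 112, 76.1 and 92.7 CPM against 38.6 to 69.7 (median 57.0). Replicate 8 overlapped the first set for Rps28 and Rps15 and stood above it for Rpl8. The log2 differences were 1.28 ± 0.33, 0.71 ± 0.19 and 0.69 ± 0.19 (adjusted p = 0.454, 0.454 and 0.532). Rps6, the substrate of S6K1, was at 223, 199 and 232 CPM against 155 to 222 (median 190), a log2 difference of 0.17 ± 0.22 (adjusted p = 0.937) with overlap at replicate 8. The 4 members below 0 were Rpl13, Rpl6, Rpl7a and Rps10, the lowest being Rps10 at -0.04 ± 0.25. Ribosomal protein genes have many near-identical pseudogenes, and how such reads were counted is not given in the sources used here.

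The RefSeq starts (GRCm38.p6) of Rps6 and of Rps28 and Rps15, and that of S100a6 for comparison, show the stretch in which the pyrimidine tract of such genes would lie. Each line gives 30 bases before and 20 bases from the annotated start, and capitals mark a run of at least 5 C or T that covers or lies within 5 bases of it. Rps6 is at chr4:86857348-86857397 (minus strand), Rps28 at chr17:33824543-33824592 (minus), Rps15 at chr10:80292401-80292450 (plus) and S100a6 at chr3:90612864-90612913 (plus).
Rps6: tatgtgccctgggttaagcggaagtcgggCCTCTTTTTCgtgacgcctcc
Rps28: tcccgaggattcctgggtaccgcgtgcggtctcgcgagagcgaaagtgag
Rps15: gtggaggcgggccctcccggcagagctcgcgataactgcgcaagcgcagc
S100a6: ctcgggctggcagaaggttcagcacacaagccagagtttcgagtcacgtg
Such a run was present in 32 of 57 ribosomal protein genes in the table (56.1%) and in 36.7% of all 27025 genes. Rps6 had it, and Rps28 and Rps15, at these annotated starts, did not. Whether such a run goes with the difference between the sets was not tested. Over the whole 300-base windows and both strands, the GC box GGGCGG was found in 64.9% of the ribosomal protein genes and 38.2% of all genes. The TATA box TATAAA was found in 12.3% and 15.7%, the E-box CACGTG in 8.77% and 8.09%, the CRE TGACGTCA in 7.02% and 2.03% and the AP-1 motif TGACTCA in 3.51% and 5.95%. A match is a description of the letters and not evidence of binding.

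Subunits of the respiratory chain and ATP synthase leaned the same way. Of 84 oxidative phosphorylation genes, 78 were above 0, the median was 0.39 and 0 passed, with 17 higher and 0 lower at an unadjusted p under 0.05 (3.96% and 1.92% of all genes). In the 9 libraries alone 1 of 84 passed as higher, Uqcrq, where 0.536% of all genes did, so this count is near the background. That count was 10 without replicate 8, 5 without replicate 6, 0 without replicates 2, 3, 5 or 7, and 1 without replicates 1, 4 or 9. Uqcrq, a subunit of complex III, was at 53.8 CPM in replicate 7, 27.5 in replicate 8 and 27.5 in replicate 9 against 7.73 to 22.7 (median 16.7). Cox6b1, a subunit of cytochrome c oxidase, was at 98.7, 54.4 and 101 CPM against 15.5 to 61.1 (median 28.7). The sets did not overlap for Uqcrq and overlapped at replicate 8 for Cox6b1. The log2 differences were 1.105 ± 0.29 and 1.27 ± 0.34 (adjusted p = 0.454 for both). Ndufb9, of complex I, went the other way at 12.1, 14.0 and 11.8 CPM against 16.5 to 23.2, without overlap (log2 difference -0.57 ± 0.29, adjusted p = 0.834). In replicate 1, 3 counts make 23.2 CPM, so for Ndufb9 an overlap with that library cannot be judged.

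Mitochondrial ribosomal proteins had 57 of 73 members above 0 and a median of 0.32, with 7 higher and 0 lower at an unadjusted p under 0.05, against 3.96% and 1.92% of all genes. Mrpl54, the member with the largest difference, was at 12.0 CPM in replicate 7, 7.74 in replicate 8 and 9.34 in replicate 9 against 0 to 7.72, a log2 difference of 1.09 ± 0.41 (adjusted p = 0.793). Proteasome subunits had 32 of 37 above 0 and a median of 0.21, with 7 higher and 0 lower at that p and against the same shares. Psmb3, a subunit of the core particle, was at 37.4, 25.5 and 28.4 CPM against 12.1 to 19.6 (median 14.5), without overlap (log2 difference 0.97 ± 0.25, adjusted p = 0.454). Translation factors were centred near 0 (20 of 36 above 0, median 0.08). Among them Eif1, which acts in start codon choice, was at 217, 99.1 and 207 CPM against 61.8 to 102 (log2 difference 1.11 ± 0.34, adjusted p = 0.619). Eif4e, the cap-binding protein downstream of mTORC1, was at 75.4, 64.9 and 78.1 CPM against 43.8 to 56.1 (log2 difference 0.56 ± 0.19, adjusted p = 0.702). Myeov2, a small protein of the COP9 signalosome, was at 29.8, 13.7 and 39.3 CPM against 7.25 to 17.4 (log2 difference 1.16 ± 0.33, adjusted p = 0.532). Replicate 8 fell within the first set for Eif1 and Myeov2 but not for Eif4e.

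**Figure D3:**
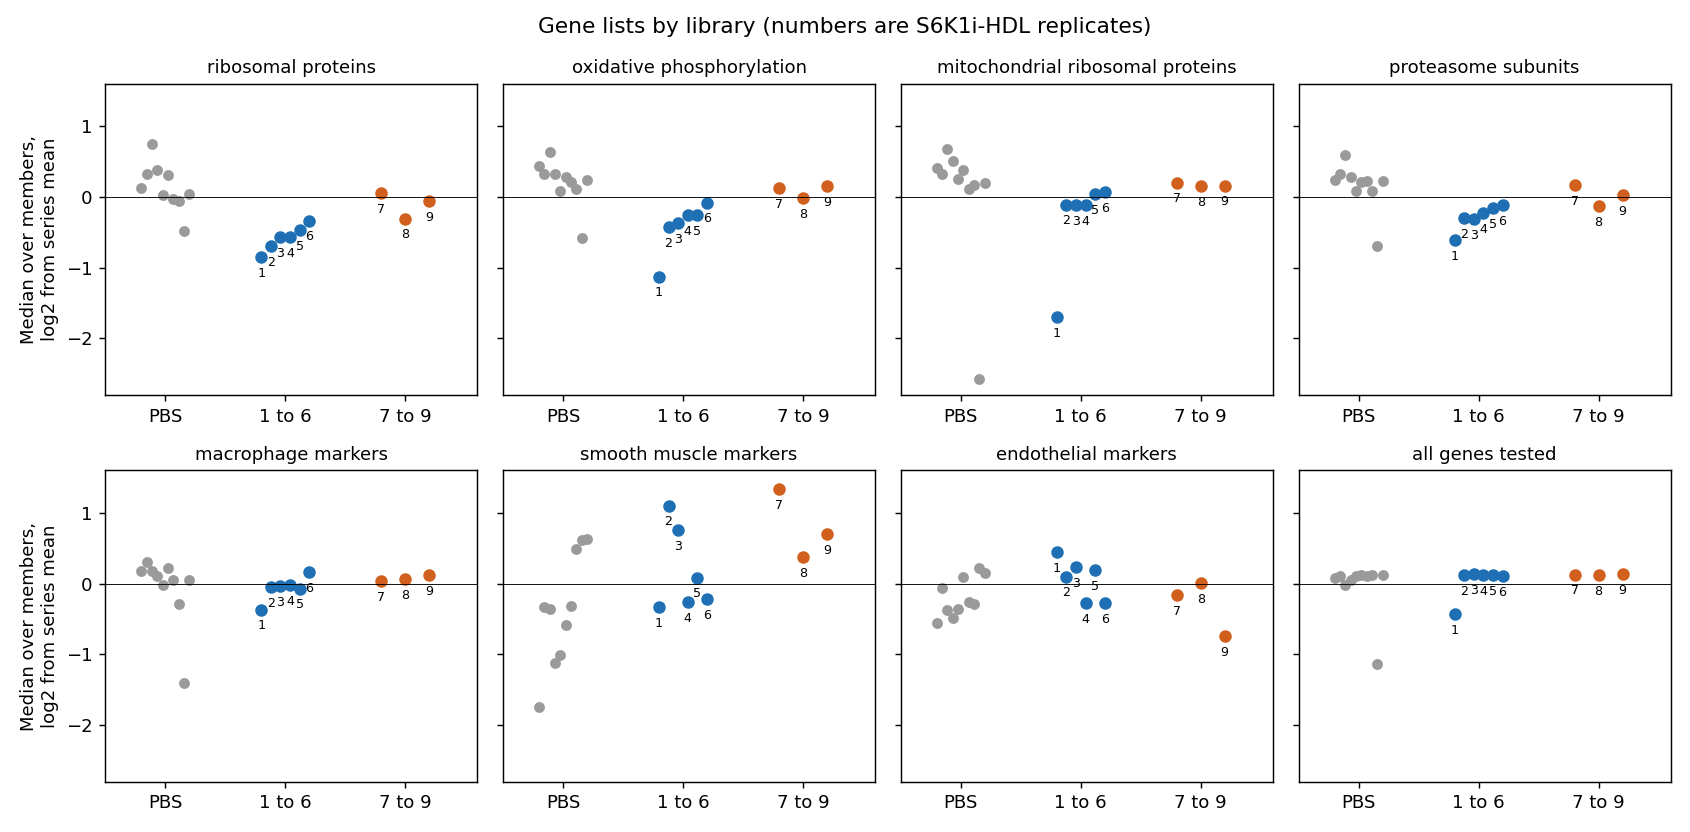
Each point is 1 library, and its height is the median over the tested members of a list of log2 CPM minus that gene's mean over the 39 libraries. Grey points are PBS, blue and orange points are S6K1i-HDL replicates 1 to 6 and 7 to 9, and numbers name replicates. Ribosomal proteins lie at -0.85 to -0.34 in replicates 1 to 6 and at -0.31 to 0.05 in replicates 7 to 9, whereas macrophage markers overlap between the sets.

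The mTORC1 and S6 kinase pathway itself showed no shared shift. Of 33 members 16 were above 0, the median was -0.02, and 1 was higher and 0 lower at an unadjusted p under 0.05, a share near the 3.96% of all genes that were higher. Rps6kb1, the target of the inhibitor, was at 59.2 CPM in replicate 7, 53.1 in replicate 8 and 60.3 in replicate 9 against 43.0 to 77.3 (median 50.1). The sets overlapped, with a log2 difference of 0.16 ± 0.23 (adjusted p = 0.944). Rps6kb2, its paralog, was at 7.91, 8.23 and 3.70 CPM against 5.67 to 15.5 (log2 difference -0.48 ± 0.47, adjusted p = 0.911). Mtor was at 38.1, 39.9 and 21.7 CPM against 34.3 to 45.4 in replicates 2 to 6 (log2 difference -0.19 ± 0.28, adjusted p = 0.950). In replicate 1 Mtor had 0 counts, which allows up to 23.2 CPM at 3 counts. The member with p under 0.05 was Rheb, the GTPase that activates mTORC1, at 50.7, 21.5 and 40.9 CPM against 15.5 to 26.9 (log2 difference 0.77 ± 0.32, adjusted p = 0.806). PF-4708671 acts on the kinase, and transcript levels do not show whether it was inhibited.

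Of the genes named by rule among the lower ones, Tek had the smallest p. Tek, an endothelial receptor for angiopoietins, was at 15.1 CPM in replicate 7, 31.4 in replicate 8 and 15.5 in replicate 9. In replicates 1 to 6 it ran from 26.0 to 73.4 with a median of 49.4, so replicates 7 and 9 lay below the first set and replicate 8 inside it. The log2 difference was -1.22 ± 0.26 (adjusted p = 0.0736), and -1.63 ± 0.30 without replicate 8 (adjusted p = 0.0125). Heg1, a receptor at endothelial junctions, was at 161, 242 and 125 CPM against 235 to 424 (median 339). Lama4, a laminin chain of vessel basement membrane, was at 15.0, 37.2 and 17.6 CPM against 33.8 to 63.3 (median 50.1). Replicate 8 overlapped the first set for both, with log2 differences of -0.89 ± 0.25 and -1.12 ± 0.33 (adjusted p = 0.472 and 0.570). Gpr116, an adhesion receptor of endothelium and lung epithelium, was at 9.74, 53.4 and 22.9 CPM against 46.4 to 96.4 (log2 difference -1.17 ± 0.38, adjusted p = 0.691, and -1.96 without replicate 8). Cgnl1, a junction protein, was at 22.7, 59.6 and 44.2 CPM against 55.4 to 112 (log2 difference -1.03 ± 0.28, adjusted p = 0.454).

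Endothelial markers as a list had 5 of 21 members above 0 and a median of -0.29, with 0 higher and 3 lower at an unadjusted p under 0.05, against 3.96% and 1.92% of all genes. Besides Tek these were Eng, a co-receptor for TGF-beta, at 87.0, 146 and 63.4 CPM against 124 to 215, and Nos3, the endothelial nitric oxide synthase, at 2.12, 6.74 and 2.82 CPM against 4.73 to 23.2. The sets overlapped for all 21 members, Tek, Eng, Nos3 and the defining markers Pecam1 and Cdh5 included. Over all genes only 3.11% lay above and 1.31% below without overlap, so this count is near the background and no result about them. Pecam1 was at 71.9, 73.6 and 49.0 CPM against 54.1 to 106, and Cdh5 at 52.0, 68.6 and 43.7 CPM against 15.5 to 74.7. The summed CPM of 22 endothelial markers was 1435, 1234 and 1009 in replicates 7, 8 and 9 and ran from 1138 to 1659 in replicates 1 to 6. The median of the list was -0.47 without replicate 8 and 0.00 in the 9 libraries alone with the Rn45s covariate, the ends of its range. In bulk tissue, fewer cells of a type and less RNA per cell cannot be told apart.

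The remaining lower genes were of mixed function. Pacs1, a sorting protein of the trans-Golgi network, was at 21.2 CPM in replicate 7, 29.2 in replicate 8 and 19.7 in replicate 9 against 34.8 to 50.7 (median 41.5), without overlap (log2 difference -0.86 ± 0.27, adjusted p = 0.619). Palmd, a palmdelphin of the cytosol, was at 3.53, 6.49 and 2.29 CPM against 7.73 to 12.8, and Add3, an adducin of the membrane skeleton, at 11.3, 13.2 and 12.3 CPM against 14.3 to 38.6. Gtpbp1, a GTP-binding protein, was at 7.06, 9.23 and 7.75 CPM against 13.6 to 21.1, so the CPM values did not overlap for any of these 4 genes. In replicate 1, 3 counts make 23.2 CPM, so for Palmd and Gtpbp1 an overlap with that library cannot be judged. The log2 differences of the 4 genes ran from -1.37 to -0.85 and none passed (adjusted p = 0.623 for Palmd, 0.691 for Add3 and 0.701 for Gtpbp1). Fgd5, an exchange factor of endothelial cells, was at 6.07, 7.98 and 4.93 CPM against 9.15 to 19.5 in replicates 2 to 6 and 0 counts in replicate 1 (log2 difference -1.19 ± 0.38, adjusted p = 0.619). Fbxo22, an F-box protein, was at 15.7, 23.0 and 22.7 CPM against 22.3 to 46.4 (log2 difference -0.67 ± 0.23, adjusted p = 0.702). Zfp521, a zinc-finger factor, was at 7.48, 24.95 and 9.16 CPM against 12.4 to 42.8 (log2 difference -1.19 ± 0.41, adjusted p = 0.719). Tgfa, an EGF receptor ligand below the level set for naming, was picked after its values were seen. It was at 0.71, 1.497 and 1.59 CPM against 2.69 to 12.6, without overlap (log2 difference -2.43 ± 0.50, adjusted p = 0.0521). Tgfa also lay under 23.2 CPM, so an overlap with replicate 1 cannot be judged for it either.

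Macrophage content, as far as markers show it, overlapped between the sets. Cd68, whose protein guided the capture, was at 983 CPM in replicate 7, 948 in replicate 8 and 957 in replicate 9 against 549 to 1097 (median 828), a log2 difference of 0.21 ± 0.27 (adjusted p = 0.938). Of 23 tested macrophage markers 18 were above 0, with a median of 0.15 and 0 at an unadjusted p under 0.05 in either direction. Their summed CPM was 14856, 16600 and 15901 against 11565 to 17270 in replicates 1 to 6 and 6321 to 32768 in PBS. Apoe, inactivated in the strain, was at 7.77, 7.74 and 2.82 CPM against 0 to 9.26. Cd68 was thus detected in all 9 libraries. How pure the captured tissue was was not tested.

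Muscle and other vessel-wall markers were read in the same way. Smooth muscle markers had 14 of 15 members above 0 and a median of 0.50, with 4 higher at an unadjusted p under 0.05, against 3.96% of all genes. Tagln, an actin-binding protein of smooth muscle, was at 148 CPM in replicate 7, 68.6 in replicate 8 and 90.4 in replicate 9 against 40.3 to 61.8 (median 53.0), without overlap (log2 difference 1.04 ± 0.43, adjusted p = 0.808). Myh11, the smooth muscle myosin, was at 130, 53.9 and 91.6 CPM against 15.5 to 105. The summed CPM of the 15 markers was 1426, 806 and 1029 against 520 to 1044, so that only replicate 7 lay above the first set. The 20 cardiac and skeletal muscle markers summed to 29.9, 82.6 and 49.2 CPM against 31.8 to 58.6, with replicate 8 highest. Fibroblast and valve markers summed to 8187, 6957 and 8006 CPM against 6324 to 7504. The part of these cell types in the gene differences was not tested.

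Some inflammatory genes were highest in replicate 7. Cxcl10, an interferon-induced chemokine, was at 77.5 CPM in replicate 7, 10.5 in replicate 8 and 24.5 in replicate 9 against 1.58 to 38.6 (log2 difference 2.099 ± 0.98, adjusted p = 0.834). Isg15, an interferon-induced ubiquitin-like protein, was at 20.5, 1.75 and 5.11 CPM against 0.63 to 7.73 (log2 difference 1.80 ± 0.67, adjusted p = 0.793). S100a8, a calcium-binding protein of neutrophils, was at 19.8, 1.75 and 3.70 CPM against 0.74 to 7.73 (log2 difference 1.71 ± 0.61, adjusted p = 0.793). Of 32 interferon-stimulated genes 23 were above 0 with a median of 0.40, and the median was 0.06 without replicate 7. At an unadjusted p under 0.05, 1 of these 32 was higher and 0 lower. Of 35 genes of inflammatory cytokines and NF-kB, 2 were higher and 0 lower. Both shares are near the 3.96% of all genes that were higher. Of 6 tested neutrophil markers 4 were above 0 and 2 below, with a median of 0.17. At that p 2 of them were higher, S100a8 included, and 0 lower. Neutrophil markers summed to 164, 80.8 and 99.6 CPM against 82.9 to 209. The 209 was the shallow replicate 1, and replicates 2 to 6 reached 116, below replicate 7. The ranges of the single genes also include replicate 1, where 3 counts make 23.2 CPM. Cxcl10, Isg15 and S100a8 were picked after their values were seen, and their differences rest on replicate 7.

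The difference between the sets varied with transcript length. The median log2 difference was 0.20 for 187 genes with a median transcript under 500 bases, 0.13 for 1868 genes of 500 to 1000 bases and 0.08 for 2998 genes of 1000 to 2000 bases. It was -0.02 for 4303 genes of 2000 to 4000 bases and -0.10 for 2196 genes of 4000 bases and over. At an unadjusted p under 0.05, 17.1% of the shortest class was higher and 1.07% lower, while of the longest class 1.64% was higher and 3.28% lower. Across 11552 genes the difference correlated with log2 length at r = -0.21 (Spearman's rho = -0.23) and with GC content at r = -0.14. With offsets for both, the ribosomal protein median went from 0.44 to 0.26 and that of oxidative phosphorylation from 0.39 to 0.22, both still above 0. With the log2 Rn45s share as a covariate these medians were 0.33 and 0.27.

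**Figure D4:**
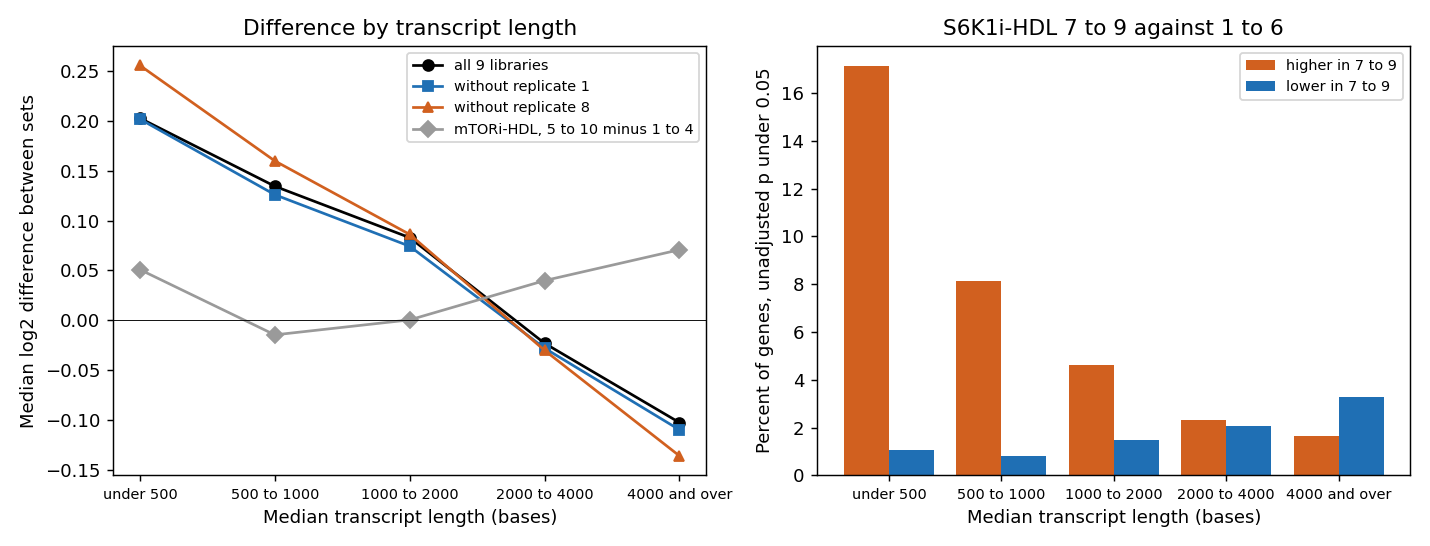
Left, the median log2 difference between sets (replicates 7 to 9 minus 1 to 6) by class of transcript length in bases, with and without replicates 1 and 8, and the corresponding mTORi-HDL difference in grey. Right, the percent of genes in each class with an unadjusted p under 0.05 in each direction. The S6K1i-HDL median goes from 0.20 under 500 bases to -0.10 at 4000 bases and over, whereas mTORi-HDL runs between -0.01 and 0.07.

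The mTORi-HDL group, also listed in separate runs (4 and 6 libraries), gave a comparison that shares no library with S6K1i-HDL. Its replicates 5 to 10 had 9 genes higher (0.0775%) and 24 lower (0.207%) than its replicates 1 to 4. These counts were 0 and 4 without mTORi-HDL replicate 1, 4 and 15 without 2, 0 and 14 without 3, 1 and 7 without 4, 4 and 6 without 8, and 16 and 21 without 10. They were 14 and 30 without PBS replicate 1, 17 and 28 without PBS replicate 3, 15 and 30 without PBS replicate 8, and 6 and 18 without mTORi-HDL replicate 9. Of these 33, none passed in S6K1i-HDL, where 0 of all 11617 genes did, so that count is no result about them. Most of the 33 differed in sign between the groups. In S6K1i-HDL only Ticrr and Tspan7 of them had an unadjusted p under 0.05, so most of these signs are uncertain. The share of all genes that differed in sign was not computed, so no reversal can be read from this. Mki67, a proliferation marker, was at -0.08 ± 0.30 in S6K1i-HDL against 1.49 in mTORi-HDL, and Cd5l, a macrophage apoptosis inhibitor, at 0.51 ± 0.72 against -3.44. Others shared their sign, such as Mmp3 at -0.45 ± 0.29 against -1.47 and Kif23 at 0.46 ± 0.39 against 1.82. The ribosomal protein median was -0.24 in mTORi-HDL against 0.44, the interferon-stimulated median -0.84 against 0.40 and the cell cycle median 1.09 against 0.24. Smooth muscle markers leaned the same way in both groups, at 1.15 in mTORi-HDL against 0.50, as did collagens and extracellular matrix at 0.33 against 0.21. Across 11617 genes the set differences of both groups correlated at r = -0.06 (rho = -0.06), a description across genes.

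The test of the difference between these set differences passed for 1 gene in the higher direction (0.00861%) and 1 in the lower (0.00861%). Tspan7, a tetraspanin, was at 20.1 CPM in S6K1i-HDL replicate 7, 28.4 in replicate 8 and 20.8 in replicate 9 against 12.3 to 19.9 in replicates 2 to 6. Replicate 1 had 0 counts, which allows up to 23.2 CPM, so an overlap with that library cannot be judged. In mTORi-HDL it ran the other way, from 26.5 to 36.7 CPM in replicates 1 to 4 and from 7.50 to 13.8 in replicates 5 to 10. The difference of the differences was 2.23 ± 0.43 on the log2 scale (adjusted p = 0.0276), between 2.06 and 2.35 over 39 alternatives and past the threshold in 30 of them. Ticrr, a replication initiation factor, gave -7.50 ± 1.52 (adjusted p = 0.0439). It was at 0.32 to 7.73 CPM in all S6K1i-HDL libraries and had 0 counts in mTORi-HDL replicates 1 to 4, so that this value depends on the fit's treatment of zeros and is no measure of size. Mmp12, the macrophage elastase, was at 2610, 3145 and 2152 CPM in S6K1i-HDL replicates 7, 8 and 9 against 1073 to 2103, and at 2160 to 5858 CPM in mTORi-HDL replicates 5 to 10 against 8129 to 14080. Its difference of 2.33 ± 0.56 had an adjusted p of 0.210. The DESeq2 Wald test called neither Tspan7 nor Ticrr. Cd72, a C-type lectin of B cells and macrophages, gave 2.07 ± 0.44 (adjusted p = 0.111) and Wbp5 1.51 ± 0.35 (adjusted p = 0.210). Both counts went to 0 without any of S6K1i-HDL replicates 3, 6, 8 or 9, or mTORi-HDL replicates 1, 2, 3 or 9. The lower count alone went to 0 without S6K1i-HDL replicate 7, PBS replicate 10 or mTORi-HDL replicates 4 or 6. The higher count was 3 without S6K1i-HDL replicate 1 or mTORi-HDL replicates 5 or 7, and 2 without PBS replicates 1, 2, 3, 6, 7, 8 or 9 or mTORi-HDL replicate 6.

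Against PBS the sets gave very different numbers of genes. The comparisons share the PBS libraries, so their values are set side by side only. Replicates 1 to 6 had 579 genes higher (4.98%) and 829 lower (7.14%), and replicates 7 to 9 had 0 higher (0%) and 1 lower (0.00861%), which was Tek at -1.35 ± 0.25 (adjusted p = 0.0164). For the second set, the count higher was 10 without PBS replicate 10, 6 without mTORi-HDL replicate 5 and 3 without S6K1i-HDL replicate 9, PBS replicate 5 or mTORi-HDL replicate 1. It was 2 without mTORi-HDL replicate 2 and 1 without S6K1i-HDL replicates 3 or 7, PBS replicate 6 or mTORi-HDL replicates 4 or 8. The count lower was 0 without S6K1i-HDL replicate 7, 4 without PBS replicate 10, 3 without mTORi-HDL replicate 5 and 2 without S6K1i-HDL replicate 8, PBS replicate 5 or mTORi-HDL replicate 1. The DESeq2 Wald test called 12 higher and 18 lower and limma-voom 4 and 7, and at an unadjusted p under 0.05 619 were higher and 565 lower. The 3 libraries of the second set give less precision than the 6 of the first. Of 76 ribosomal protein genes, 56 were lower than PBS in replicates 1 to 6, with a median of -0.72, and 0 in replicates 7 to 9, with a median of -0.29. Of 84 oxidative phosphorylation genes, 39 were lower in replicates 1 to 6 (median -0.65) and 0 in replicates 7 to 9 (median -0.23). The median over all genes was -0.02 and 0.00. A gene called in the first set and not in the second is not thereby shown to differ between them, and the direct test called 0.

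For single genes the values were as follows. S100a6 was at 132 to 219 CPM in PBS (median 147), a range that holds replicates 7 and 9 and lies above all of replicates 1 to 6. Its log2 difference from PBS was -0.97 ± 0.18 (adjusted p = 0.000321) in replicates 1 to 6 and 0.11 ± 0.20 (adjusted p = 0.900) in replicates 7 to 9. Rpl8 was at 84.3 to 126 CPM in PBS, with -0.77 ± 0.16 (adjusted p = 0.000971) and -0.08 ± 0.18 (adjusted p = 0.940) in the same order. Rps6, whose CPM overlapped between the sets, gave -0.94 ± 0.17 (adjusted p = 0.000278) and -0.77 ± 0.21 (adjusted p = 0.153). Pacs1 gave 1.11 ± 0.21 (adjusted p = 0.000561) and 0.25 ± 0.25 (adjusted p = 0.780). Tek was at -0.13 ± 0.19 (adjusted p = 0.714) in replicates 1 to 6 and at -1.35 ± 0.25 in replicates 7 to 9, so for Tek the second set lay farther from PBS.

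The Rn45s share was set beside these counts. It was 2.28% to 30.01% in PBS with a median of 7.49%, a range that holds replicates 7 and 9 but neither replicate 8 nor any of replicates 1 to 6. With the log2 Rn45s share as a covariate, replicates 1 to 6 had 9 genes higher and 12 lower than PBS, and 1 of 76 ribosomal protein genes was lower (median -0.41). For replicates 7 to 9 the same covariate gave more calls, 7 higher and 16 lower, where the reported fit gave 0 and 1. No PBS library reached the lowest share of replicates 1 to 6, so the share and the treatment cannot be told apart here. Leaving out any 1 S6K1i-HDL, PBS or mTORi-HDL library left 370 to 702 genes higher and 549 to 928 lower in replicates 1 to 6, and 50 to 59 ribosomal protein genes lower. The counts moved by over 1.5 times without S6K1i-HDL replicate 3 (370 higher and 549 lower) and without replicate 2 (385 higher).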

How the data were processed

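Each deposited file holds 1 library as raw read counts for 24062 gene symbols plus 5 closing lines of reads outside genes, which were kept out of library sizes and tests. The submitters' processing notes list HTSeq 0.6.1 beside the aligners Bowtie2 2.2.8 and TopHat2 2.1.0, and the authors deposited counts without normalization. The notes name build hg19, a human build, although the symbols are mouse, so no coordinates were taken from the files. Counts were fitted with edgeR 4.0.16 (filterByExpr, TMM scaling, robust quasi-likelihood fit, R 4.3.3) over all 39 libraries in 6 sets, with Benjamini-Hochberg adjustment over 11617 genes. CPM values are TMM-scaled. Library measures used exact two-sided permutation tests. The script was tested on simulated data. Interval limits and the 3-count floor cover counting error only.

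The members and the 44 gene lists were chosen with earlier results of these data known. Named genes were, for higher and lower separately, the 12 lowest p-values at a mean log2 CPM of at least 3, fixed pathway and control genes, and the 5 lowest p-values for the difference between set differences. S100a4, Gm14446, Snx10, Eif1, Eif4e, Rheb, Ndufb9, Mrpl54, Eng, Nos3, Pecam1, Cdh5, Tagln, Myh11, Tgfa, Cxcl10, Isg15, S100a8, Mki67, Cd5l, Mmp3, Kif23 and Rps10 were named after their values were seen. Alternatives were DESeq2 1.42.0, limma 3.58.1 (voom), other filters and scalings, covariates, and offsets from transcript length and GC content (99.4% of genes matched). Each S6K1i-HDL, PBS or mTORi-HDL library was also left out in turn, and no TRAF6i-HDL library was left out singly. Leaving out PBS or mTORi-HDL libraries and the settings of the PBS comparisons were added after seeing the data. Sequences are from RefSeq (GRCm38.p6).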

Additional observations from a re-analysis of the deposited data

Results flagged for a closer look

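Within S6K1i-HDL replicates 1 to 6, replicate 1 lay far from the other 5 in depth, with 118527 counts in genes and 8270 detected genes. It also lay far below them for 4 genes at 0 CPM, which were Fgd5, Mtor, Apoe and Tspan7. At this depth 0 counts allow up to 23.2 CPM (3 counts), above the level of Fgd5, Apoe and Tspan7 in the other 5 libraries. Replicate 6 lay far below the others of its set for Zfp521, at 12.35 CPM. Chance marks about 1 in 20 groups, and 42 groups were checked.

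The set difference itself differed between S6K1i-HDL and mTORi-HDL for Tspan7 (2.228 on the log2 scale) and for Ticrr (-7.497), both by a test of that difference. The value for Ticrr rests on 4 mTORi-HDL libraries with 0 counts.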

How the results depend on the processing

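No paired analysis was possible because the sets of replicates 1 to 6 and 7 to 9 share no replicate number. Between the sets (0 higher, 0 lower), DESeq2 gave 1 and 2, limma-voom 7 and 3, the Rn45s covariate 1 and 1, and the 9 libraries alone 61 and 14. Those 9 alone gave 84 and 17 with DESeq2, 3 higher with limma-voom, 1 with length and GC offsets and 1 with the Rn45s covariate. Leaving out replicates 1 to 9 in turn from these 9 gave 30, 8, 8, 17, 4, 129, 11, 414 and 3 higher and 8, 3, 0, 4, 0, 27, 1, 289 and 0 lower, and from all 39 libraries 0 to 1 higher and 0 to 2 lower. For mTORi-HDL (9 and 24), DESeq2 gave 27 higher, limma-voom 43 and 79, the Rn45s covariate 43 and 71, and leaving out libraries 0 to 17 and 4 to 30. For the difference of set differences (2 genes), DESeq2 gave 5 (Cd5l, Heg1, Mki67, Plek and Wbp5, neither Tspan7 nor Ticrr), limma-voom 88, the stricter filter 1, the Rn45s covariate 7, the offsets 1 and leaving out libraries 0 to 4. For replicates 1 to 6 against PBS (579 and 829), DESeq2 gave 934 higher, limma-voom 1071, the detected-gene covariate 183, the Rn45s covariate 9 and 12, the offsets 251 and 461, a log2 change of at least 1 gave 199 and 257, and leaving out libraries 370 to 702 and 549 to 928. For replicates 7 to 9 against PBS (0 and 1), size factors gave 8 and 4, DESeq2 12 and 18, limma-voom 4 and 7, no filter 13 and 5, the Rn45s covariate 7 and 16, detected genes 1 and 2, the offsets 1 and 2, and leaving out libraries 0 to 10 and 0 to 4.

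Among the named genes, 5 changed sign in some settings, none of them past the threshold in the reported fit. With offsets, Rps6 was at -0.0253 over all libraries and -0.0258 in the 9 alone, and Cd68 at -0.000385 in the 9 alone. With the Rn45s covariate in the 9 alone, Mtor was at 0.22, Apoe at 0.41 and Rn45s at 0.0666. Leaving out libraries gave Mtor -0.33 to 0.0443 and Apoe -0.30 to 0.28. In the 9 alone Mtor was at 0.011 without replicate 9, and Apoe at 0.0314 without replicate 5, 0.0963 without 6 and 0.25 without 9. The causes were not tested. Replicate 1 holds too few counts to show genes under 23.2 CPM.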
